A study of Mus musculus with 3 samples.

Results

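The transcripts described here are those of 45 cell cycle genes, 19 that act in S phase, when DNA is copied, and 26 that act in G2 phase and mitosis, when the copies are separated. They were taken from a list of established proliferation genes, and all 45 were among the 32285 gene rows of the deposited count tables. The rule that chose them used no measured level, though the choice was made with earlier results of these data known. They were followed through 10 classes of immune cells of the inflamed nerve to see which classes held transcripts of dividing cells. The cells were CD45+ cells, that is immune cells, sorted after perfusion and digestion of the sciatic nerves. The mice, neuropathic NOD.AireGW/+, were animals in which 1 copy of Aire, a gene needed for immune tolerance in the thymus, carries a partial loss-of-function change on the autoimmunity-prone NOD background. Libraries 1 and 2 held 1 mouse each, and library 3 pooled the cells of 2 mice, which the files do not separate. All libraries belonged to this 1 group, so cell classes were compared within libraries and no effect of disease was tested. The age of the mice was not given in the sources used here.

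A cell that enters the cycle first makes the enzymes and clamps of DNA copying. The Mcm2 to Mcm7 proteins open the double helix, Pcna holds the polymerase on its template, and Tyms, Tk1, Dut, Rrm1 and Rrm2 supply nucleotides. Later it makes the mitotic cyclins, the kinase Cdk1 that they activate, the proteins of the centromere and spindle, and Cdc20 and Ube2c, which mark cyclins for destruction. E2F factors act on many S-phase promoters, while many mitotic promoters carry CCAAT boxes and a cell cycle homology region (CHR).

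Promoter sequences of 6 of these genes are shown as examples of both groups, 5 because their transcripts recur below and Mcm6 for its repeated E2F letters. RefSeq promoter windows on build GRCm38.p6 were matched for 37 of the 45 genes. The 150 bases before the start were searched on both strands for TTTGAA and TTCGAA (CHR), CCAAT, and TTTCCCGC, TTTGGCGC and TTTCGCGC (E2F). Capitals mark the matches on either strand, and neighbouring matches can run together. The Cdk1 stretch ends earlier because another annotation, GENCODE, starts the gene further upstream. Mcm5 and Mcm6, helicase subunits of S phase, are at chr8:75109359-75109508 (+) and chr1:128359706-128359855 (-). Cdk1 is at chr10:69352939-69353062 (-), Ccnb2, a mitotic cyclin, at chr9:70421555-70421704 (-), Top2a, which untangles DNA, at chr11:99024190-99024339 (-), and Kif11, a spindle motor, at chr19:37376232-37376381 (+).
Mcm5: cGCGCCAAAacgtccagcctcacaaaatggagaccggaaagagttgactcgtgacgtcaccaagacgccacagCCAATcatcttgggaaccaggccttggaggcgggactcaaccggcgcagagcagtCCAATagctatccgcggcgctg
Mcm6: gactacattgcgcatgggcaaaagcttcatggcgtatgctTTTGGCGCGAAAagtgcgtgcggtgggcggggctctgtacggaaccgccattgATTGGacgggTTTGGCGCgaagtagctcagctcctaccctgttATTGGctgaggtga
Cdk1: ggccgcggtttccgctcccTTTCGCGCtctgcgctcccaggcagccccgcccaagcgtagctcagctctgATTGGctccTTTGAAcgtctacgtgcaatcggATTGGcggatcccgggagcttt
Ccnb2: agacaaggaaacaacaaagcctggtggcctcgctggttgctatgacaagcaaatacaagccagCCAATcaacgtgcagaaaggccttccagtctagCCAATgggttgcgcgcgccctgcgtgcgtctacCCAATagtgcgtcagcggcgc
Top2a: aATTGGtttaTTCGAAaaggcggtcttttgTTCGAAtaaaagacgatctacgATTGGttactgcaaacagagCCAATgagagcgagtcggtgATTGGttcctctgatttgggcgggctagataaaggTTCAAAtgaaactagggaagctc
Kif11: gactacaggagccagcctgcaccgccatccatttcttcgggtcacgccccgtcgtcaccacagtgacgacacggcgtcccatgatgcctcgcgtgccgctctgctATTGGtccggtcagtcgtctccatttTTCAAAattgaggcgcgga

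A CHR match was found for 8 of 22 mitotic genes with a window (36.4%), 1 of 15 S-phase genes (6.67%) and 11.2% of the 27025 genes of the table. CCAAT was found for 20 of 22 mitotic genes (90.9%), 10 of 15 S-phase genes (66.7%) and 27.7% of all genes. E2F letters were found for 3 of 15 S-phase genes (20.0%), 1 of 22 mitotic genes (4.55%) and 1.19% of all genes. These matches describe letters, and binding was not measured.

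The libraries held 3926, 8311 and 1533 cells with 22983991, 55120460 and 3399733 UMIs (unique molecular identifiers, each counting 1 captured transcript). After limits on UMIs, genes and mitochondrial share, 3848, 8256 and 1533 cells remained, with medians of 3956, 4632.5 and 1726 UMIs, so library 3 was the least precise. Each cell was put in a class by UMIs of marker genes that did not include any cell cycle gene. The classes held 2500, 5137 and 710 cells, and the other cells met no gate. Of these, 426, 1156 and 591 had CD3 UMIs without a UMI of Cd4, Cd8 or Foxp3. Others had too few marker UMIs or markers of several lineages. Macrophages numbered 10, 1821 and 3 and plasma cells 26, 79 and 1 in libraries 1 to 3, so statements on both rest on libraries 1 and 2, and those on macrophages almost wholly on library 2. Markers outside the gates followed the classes in part. Ctla4 was at 2276, 1914 and 1743 CPM (counts per gene scaled to the same total in every sum), without further scaling, in Foxp3 cells. In CD4 T cells it was at 1746, 1103 and 934. Adgre1, a macrophage receptor, was at 273 and 235 in macrophages and 0, 0.372 and 0 in CD4 T cells. In monocytes, however, Adgre1 was at 106, 86.4 and 29.8, and Trdc, a marker of the gamma delta gate, was at 174, 113 and 84.9 in NK cells. Ncr1, a marker of the NK gate, was at 231, 88.7 and 170 in gamma delta cells and 1084, 942 and 628 in NK cells. Levels below are CPM after TMM scaling. In library 2, 950 further cells carried both CD3 and C1q UMIs and were left out of the classes. Libraries shared 36, 7 and 14 cell barcodes, pairwise.

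Dividing cells were sought first as single cells. Each cell was thinned to 1000 UMIs, since deeper cells show more genes, and was counted when it held at least 2 distinct S-phase genes or at least 2 distinct mitotic genes. CD8 T cells had the highest mean share, at 20.6%, 14.4% and 14.9% of cells in libraries 1 to 3 (16.6% ± 3.45, SD, n = 3). Foxp3 cells, the regulatory T cells, had 12.8%, 15.6% and 13.0% (13.8% ± 1.54), and Foxp3-negative CD4 T cells, called CD4 cells from here on, 14.6%, 12.5% and 11.5% (12.9% ± 1.58). The ranges of these 3 classes overlapped, though within each library the CD8 share was above the CD4 share, in 3 of 3. With stricter gates libraries 1 and 3 kept this direction, but library 2 reversed it (12.4% in CD8 against 13.1% in CD4 cells). The order was not fixed: Foxp3 cells were highest when cells were thinned to 2000 UMIs (34.7% against 34.1% in CD8 cells) or at least 1 gene was asked for (55.4% against 55.1%), and plasma cells when cells were not thinned (55.4% against 51%).

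Gamma delta T cells were at 12.3%, 10.5% and 4.17%, and natural killer (NK) cells at 6.56%, 5.06% and 5.88%. Plasma cells were at 3.85% and 16.5% in libraries 1 and 2, with exact 95% intervals of 0.0973% to 19.6% and 9.06% to 26.5%. Immunoglobulin genes and Jchain held 67.9% and 57.1% of plasma cell UMIs in libraries 1 and 2. Thinning counted these UMIs, so plasma cells kept fewer UMIs of other genes than the other classes did. Their shares can therefore be too low beside those of the other classes. Dendritic cells were at 5%, 8.96% and 6.25%. B cells were lower, at 5.11%, 2.82% and 1.47%, as were monocytes, at 1.82%, 2.89% and 3.33%. Macrophages were the lowest under this rule, at 0 of 10 cells in library 1, which allows a share of up to 30%, and 20 of 1783 cells in library 2 (1.12%, interval 0.686% to 1.73%). With at least 1 gene the macrophage mean over libraries was 39%, above monocytes (25.9%) and dendritic cells (27.9%). When immunoglobulin genes were left out, in a separate random thinning, it was 5.67% against 1.38% in monocytes. In these 2 macrophage means the 10 cells of library 1 weigh as much as all those of library 2, so a rank cannot be read from them. Mature dendritic cells (Ccr7 with Fscn1 or Ccl22), generally held not to divide and taken as the background of free RNA, had 1 of 39 cells in library 2 (2.56%, interval 0.0649% to 13.5%) with a median of 8411 UMIs, against 3404.5 UMIs in CD8 cells. With so few mature cells this interval is wide, and the library 2 shares of macrophages, B cells, monocytes, NK, dendritic, gamma delta and CD4 cells all lay inside it. Intervals cover counting error only.

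**Figure D1:**
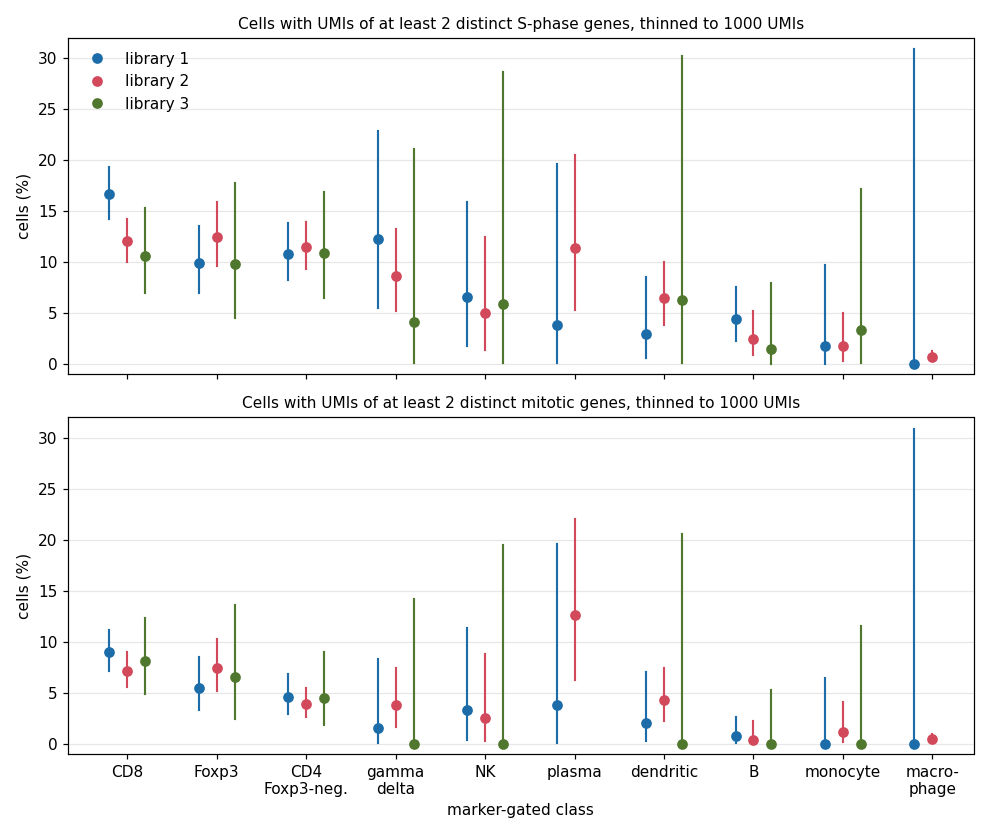
Share of cells (%, vertical axis) with UMIs of at least 2 distinct S-phase genes (top) or mitotic genes (bottom) after thinning to 1000 UMIs, by class and library, for libraries with at least 10 cells of the class. Points are shares and lines exact 95% binomial intervals; in CD8 cells all 3 libraries lay at or above 7.16% for mitotic genes, and in B cells all lay at or below 0.730%.

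Mitotic genes gave a sharper order than S-phase genes. Cells with at least 2 mitotic genes made up 8.08% ± 0.918 of CD8 cells, 6.50% ± 0.967 of Foxp3 cells and 4.32% ± 0.393 of CD4 cells (SD, n = 3). Neither Foxp3 and CD4 libraries (5.52% to 7.46% against 3.88% to 4.61%) nor CD8 and CD4 libraries overlapped, whereas CD8 and Foxp3 libraries did. For S-phase genes the CD8, Foxp3 and CD4 means were 13.1% ± 3.16, 10.7% ± 1.54 and 11.1% ± 0.371, and the libraries overlapped. In B cells 2.76% ± 1.48 held S-phase genes and 0.378% ± 0.366 held mitotic genes. In plasma cells the mitotic share, 3.85% and 12.7%, was as high as the S-phase share, 3.85% and 11.4%.

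Depth before thinning differed between cells with and without these genes, and not alike in all libraries. In CD8 cells the medians were 4866 against 4327.5 UMIs in library 1, 6467 against 3231 in library 2 and 2895 against 2131.5 in library 3. In Foxp3 cells they were 3617.5 against 3465.5, 6853 against 2515 and 4238 against 2116.5 UMIs. In CD4 cells they were 3111 against 3284.5, 4060 against 2481 and 2089.5 against 1853 UMIs, so those with the genes were the shallower ones in library 1. The part of doublets in this was not tested. Without the cells above the 95th percentile of UMIs of their library, the CD8, Foxp3 and CD4 shares were 14.6%, 11.9% and 12.4%.

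By number, T cells made up most dividing cells that had a class. Cells counted by the rule above numbered 485, 715 and 148 in the libraries. CD8 cells were 35.5%, 19.4% and 23.6% of them, CD4 cells 15.1%, 13.6% and 12.2%, and Foxp3 cells 9.07%, 9.93% and 8.11%. Cells in no class were 33.6%, 43.6% and 52.7%. Among these, cells with CD3 UMIs but no UMI of Cd4, Cd8 or Foxp3 had a share of 13.7%, 9.74% and 13.2%, and the cells with both CD3 and C1q UMIs in library 2 had 9.60%. In library 1 the latter had 28.6% (6 of 21 cells). CD3 cells with UMIs of Cd8 and of Cd4 or Foxp3 had 16.5%, 21.6% and 27.3% (3 of 11 cells in library 3). Their medians were 6017, 7694.5 and 2131.5 UMIs. Cells with CD3 and B cell UMIs had 8.93%, 13.4% and 16.7% (1 of 6 cells in library 3).

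Levels were then compared gene by gene. UMIs were summed over the cells of each class in each library, which gave 28 sums of at least 10 cells, and tested with edgeR's quasi-likelihood test with the library as a block. A gene was called at a Benjamini-Hochberg adjusted p under 0.05 over the 9820 genes tested. Of the 45 genes 40 passed the filter on low counts. Bub1 and Bub1b, of the spindle checkpoint, the mitotic kinases Aurka and Plk1, and Cenpe, a centromere motor, did not pass. Comparisons of a class with the mean of the other 9 share samples and are not independent of each other. That mean is taken over log levels, so a class without UMIs of a gene lowers it. B cells had 0 UMIs of Ccnb2, Prc1 and Hmmr, which enlarges the differences of the other classes for these genes. In sums, more dividing cells and more transcript per cell cannot be told apart.

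**Figure D2:**
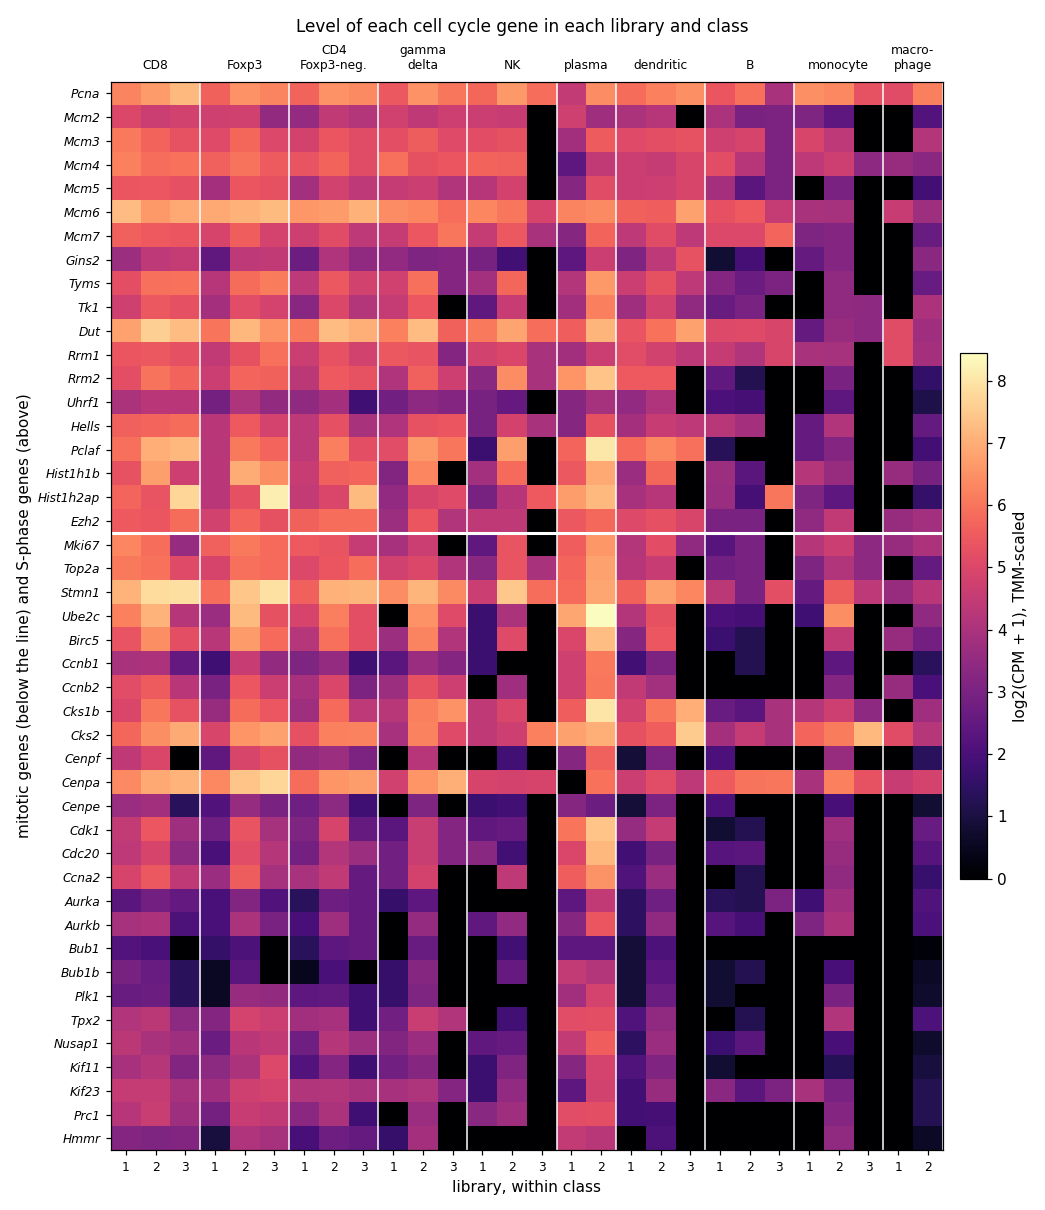
Level of each of the 45 genes (rows) in each library of each class (columns), as log2(CPM + 1) after TMM scaling. S-phase genes are above the white line and mitotic genes below it; the columns of CD8, Foxp3, CD4 and plasma cells are bright for most mitotic genes, and those of B cells, monocytes and macrophages are dark.

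Mki67, the antigen most used to mark cycling cells, stood at 78.2, 58.4 and 11 CPM in CD8 cells, 47.7, 67.1 and 55.8 CPM in Foxp3 cells and 44.0, 39.7 and 22 CPM in CD4 cells of libraries 1 to 3. It was at 14.3, 24.4 and 0 CPM in gamma delta cells, 4.44, 40.4 and 0 CPM in NK cells and 16.9, 36.0 and 9.80 CPM in dendritic cells. Plasma cells were at 47.3 and 96.2 CPM, B cells at 3.80, 6.88 and 0 CPM, monocytes at 17.3, 23.8 and 9.73 CPM and macrophages at 11.3 and 15.5 CPM. Every Foxp3 and plasma library exceeded every B, monocyte and macrophage library for Mki67, while CD8 cells of library 3 did not.

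Top2a was at 67.5, 61.2 and 32.9 CPM in CD8 cells, 29.0, 59.9 and 55.8 CPM in Foxp3 cells, 31.3, 40.7 and 58.7 CPM in CD4 cells and 51.6 and 108 CPM in plasma cells. It was at 26.5, 30.7 and 16.5 CPM in gamma delta cells, 8.88, 40.4 and 14.6 CPM in NK cells and 17.7, 22.5 and 0 CPM in dendritic cells. B cells had 6.08, 6.88 and 0 CPM, monocytes 7.40, 16.8 and 9.73 CPM and macrophages 0 and 4.83 CPM. For Top2a every CD8, Foxp3, CD4 and plasma library lay above every library of B cells, monocytes and macrophages.

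Pcna did not separate the classes in this way. It was at 76.2, 102 and 146 CPM in CD8 cells, 49.7, 91.1 and 76.7 CPM in Foxp3 cells, 51.1, 89.5 and 83.1 CPM in CD4 cells, 42.8, 91.2 and 66.0 CPM in gamma delta cells and 53.3, 98.5 and 58.2 CPM in NK cells. Plasma cells had 21.5 and 84.9 CPM, dendritic cells 57.4, 73.3 and 88.2 CPM, B cells 41.0, 59.1 and 14.6 CPM, monocytes 88.8, 81.1 and 38.9 CPM and macrophages 34.0 and 71.2 CPM. The ranges of all classes overlapped that of B cells except that of CD8 cells.

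Mcm5 was at 40.5, 41.5 and 37.6 CPM in CD8 cells, 13.8, 40.8 and 38.4 CPM in Foxp3 cells, 13.5, 26.7 and 19.6 CPM in CD4 cells, 22.4, 24.4 and 16.5 CPM in gamma delta cells and 23.7, 24.7 and 29.4 CPM in dendritic cells. It was at 17.8, 27.8 and 0 CPM in NK cells, 8.60 and 34.0 CPM in plasma cells, 13.7, 4.13 and 7.32 CPM in B cells, 0, 6.99 and 0 CPM in monocytes and 0 and 2.62 CPM in macrophages. All 3 CD8 libraries lay above all 3 CD4 libraries for Mcm5, and all 3 dendritic libraries lay above all B cell, monocyte and macrophage libraries.

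In CD8 T cells, which kill infected or altered cells, every tested gene was higher than in the mean of the other classes: 40 of 40 were called higher and 0 lower, against 20.1% higher and 9.82% lower among all genes tested. Their median log2 difference was 1.52, against 0.06 for all genes tested. The order by role ran from a median of 1.14 for the 8 genes of the replication helicase and clamp, over 1.4 for the 5 of nucleotide supply, 1.54 for the 4 of centromere and mitotic kinases and 1.66 for the 6 of chromatin copying, to 1.75 for the 9 of spindle and chromosomes and 1.80 for the 8 of cyclins and their destruction. Ccnb2 showed the largest difference (log2 difference 2.48 ± 0.31 SE, adjusted p = 1.85e-07, edgeR), at 35.2, 45 and 18.8 CPM. Pclaf, which binds Pcna, was at 60.1, 127 and 143 CPM (2.38 ± 0.23, adjusted p = 3.50e-10), and Hmmr, a spindle assembly protein, at 8.21, 7.54 and 7.83 CPM (2.35 ± 0.55, adjusted p = 0.0013). The number called ranged from 33 to 41 when 1 library was left out.

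In Foxp3 cells 32 of 40 genes were called higher and 0 lower, against 18% and 7.75% of all genes, with a median log2 difference of 1.06 against 0.05. All 9 spindle and chromosome genes and all 6 chromatin copying genes were among them, but 5 of 8 helicase and clamp genes and 3 of 5 of nucleotide supply. Hmmr was at 0.984, 16.3 and 14.0 CPM (log2 difference 2.29 ± 0.60 SE, adjusted p = 0.0046, edgeR) and lay above the mean of the other classes in 2 of 3 libraries. Kif11 was at 9.35, 15.0 and 31.4 CPM (2.00 ± 0.34, adjusted p = 2.85e-05), and Prc1, which bundles the microtubules of the dividing spindle, at 6.40, 22.7 and 20.9 CPM (1.80 ± 0.38, adjusted p = 0.000398). Library 1 was the lowest for all 3 genes. Without library 2 the count fell to 14, and without the library term to 20.

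In CD4 cells 20 of 40 genes were called higher and 0 lower, against 18.1% and 8.86% of all genes, with a median log2 difference of 0.70 against 0.05. They comprised 12 of 21 mitotic and 8 of 19 S-phase genes, with 7 of 9 for spindle and chromosomes and 2 of 8 for helicase and clamp. Ccnb2 was at 14.3, 30.0 and 7.33 CPM (log2 difference 1.43 ± 0.40 SE, adjusted p = 0.0066, edgeR) and Prc1 at 9.12, 15.0 and 2.44 CPM (1.33 ± 0.38, adjusted p = 0.0080). Both genes had 0 UMIs in B cells, and Ccnb2 was lower in CD4 than in CD8 cells of every library. Ezh2, which represses genes through histone methylation, was steadier, at 49.9, 57.7 and 58.7 CPM (1.25 ± 0.18, adjusted p = 1.12e-06). The count of CD4 calls was 10 with DESeq2, 4 without the library as a block and 14 to 16 with 1 library left out.

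**Figure D3:**
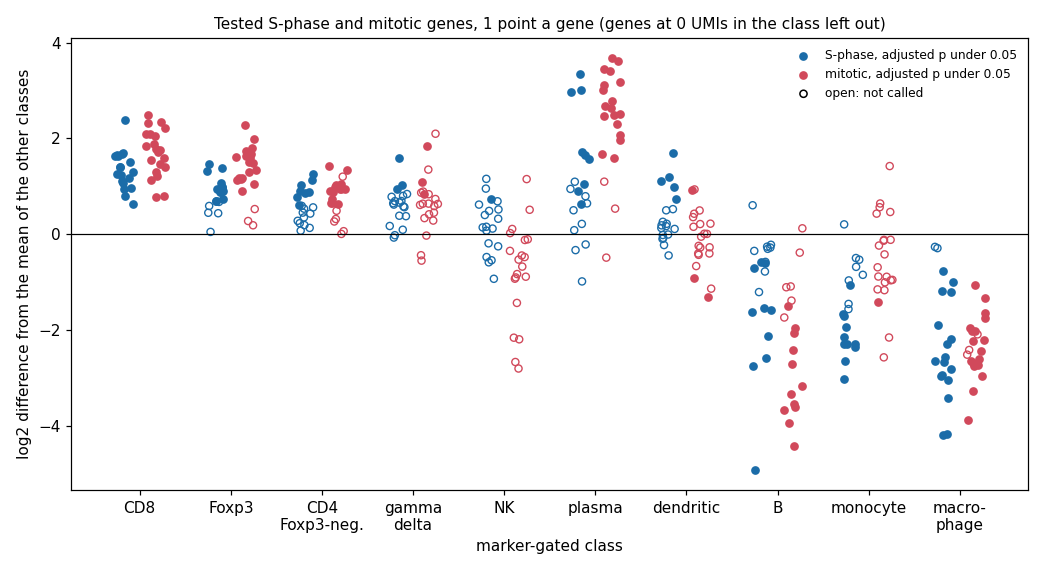
Log2 difference of each tested gene between a class and the mean of the other classes (vertical axis), S-phase genes in blue and mitotic genes in red, filled where the edgeR adjusted p was under 0.05. All points of CD8 cells lie above 0 and are filled, those of macrophages lie below 0, and in plasma cells the mitotic points lie higher (median 2.51) than the S-phase points (median 0.89).

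Set directly against CD4 cells, CD8 cells had 10 of 40 genes called higher and 0 lower, against 3.64% and 5.04% of all genes, with a median log2 difference of 0.74 against 0.01. Kif11 was at 14.5, 17.3 and 7.83 CPM in CD8 cells and 3.57, 8.35 and 2.44 CPM in CD4 cells (log2 difference 1.44 ± 0.37 SE, adjusted p = 0.0080, edgeR). Pclaf was at 19.8, 72.1 and 36.7 CPM in CD4 cells (1.33 ± 0.28, adjusted p = 0.0013). Ccna2, the cyclin of S and G2 phase, was at 29.1, 43.0 and 20.4 CPM in CD8 cells and 14.7, 20.7 and 4.89 CPM in CD4 cells (1.14 ± 0.28, adjusted p = 0.0068). The others were Mcm5, Stmn1, Hells, Cdk1, Tk1, Mcm3 and Mcm7, and each of the 10 was higher in CD8 cells of all 3 libraries. This count was unstable, with 1 gene by DESeq2, 0 without the library as a block, 3 without library 1 and 22 with stricter gates. Over all 45 genes, tested or not, the level was higher in CD8 cells for 44, 41 and 30 genes in libraries 1 to 3.

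Foxp3 cells against CD4 cells gave 0 of 40 genes in either direction, against 1.92% higher and 1.5% lower of all genes (edgeR quasi-likelihood test). An unadjusted p under 0.05 was reached by 6 genes, and DESeq2 called 0. The nearest was Kif11, with a log2 difference of 1.35 ± 0.40 SE (adjusted p = 0.058, edgeR). The libraries went apart here, with 17 of 45 genes higher in Foxp3 cells in library 1, 40 in library 2 and 36 in library 3, and without library 1 the count rose to 4. A p that misses the threshold does not show that both classes divide alike.

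Gamma delta T cells, lymphocytes with a second kind of T cell receptor, had 6 of 40 genes called higher (15%, against 10.5% of all genes) and 0 lower (4.25%), a share close to the background. Their median log2 difference was 0.64, against 0.00 for all genes. Ccnb2 was at 12.2, 39.2 and 24.7 CPM (log2 difference 1.84 ± 0.50 SE, adjusted p = 0.010, edgeR), Pclaf at 34.6, 98.6 and 66.0 CPM (1.58 ± 0.33, adjusted p = 0.000546) and Birc5, which guides chromosome separation, at 12.2, 77.4 and 16.5 CPM (1.08 ± 0.31, adjusted p = 0.015). Library 2 was the highest for all 3 genes. DESeq2 called 3 and the fit without the library term 0, and without library 1 the count was 14.

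NK cells had 1 of 40 genes called higher (2.5%, against 8.11% of all genes) and 0 lower (4.83%). It was Dut, which keeps uracil out of DNA, at 66.6, 114 and 58.2 CPM (log2 difference 0.74 ± 0.24 SE, adjusted p = 0.042, edgeR). The median log2 difference was 0.16 for S-phase genes and -0.67 for mitotic genes, against -0.06 for all genes. NK sums rested on 66, 80 and 17 cells, and Hmmr, Aurka and Plk1 had 0 UMIs in all of them, which allows up to 3.28 CPM each. DESeq2 and stricter gates called 0, while 4 were called without the filter on low counts, 5 without library 1 and 7 without the cells above the 95th percentile of UMIs.

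Plasma cells, the antibody-secreting descendants of B cells, had the highest median of mitotic genes. Here 27 of 40 genes were called higher and 0 lower, against 18.5% and 16.5% of all genes, and the median log2 difference was 1.69 against -0.17. They comprised 18 of 21 mitotic and 9 of 19 S-phase genes, with 8 of 8 for cyclins and their destruction and 1 of 8 for helicase and clamp. Cdk1 was at 64.5 and 170 CPM in libraries 1 and 2 (log2 difference 3.67 ± 0.26 SE, adjusted p = 1.63e-13, edgeR), Ccnb1, a mitotic cyclin, at 25.8 and 66.5 CPM (3.62 ± 0.41, adjusted p = 1.32e-08) and Cdc20 at 30.1 and 144 CPM (3.45 ± 0.33, adjusted p = 2.71e-10). Both plasma libraries lay above all CD8 libraries for Cdk1, Ccnb1 and Cdc20. Ube2c was at 116 and 347 CPM, against 73.7, 137 and 17.2 CPM in CD8 cells, so its ranges overlapped.

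The plasma cell values came from few cells. In library 1, 1 of 26 cells held 87.8% of the UMIs of mitotic genes, and in library 2, 13 of 79 cells held 94.9%. Without cells above the 95th percentile of UMIs of their library only 3 genes were called. Plasma cells are deep, with medians of 26336 and 23632 UMIs, so many fall above that limit. Immunoglobulin genes and Jchain took 67.9% and 57.1% of their UMIs, and TMM scaling corrected for this with factors of 0.323 and 0.373. Without these genes the count was 29. The plasma cell gate set no limit on B cell genes. Cd79a was at 599 and 422 CPM without TMM scaling in plasma cells, against 3614, 3281 and 2521 in B cells. Stages between B cells and mature plasma cells were therefore not separated.

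B cells were at the other end. None of the 40 genes was called higher (0, against 19% of all genes) and 24 were called lower, against 12.5%, with a median log2 difference of -1.60 against 0.03. They comprised 14 of 21 mitotic genes, including 7 of 8 for cyclins and their destruction, and 10 of 19 S-phase genes. Ccnb2, Prc1, Hmmr and Bub1 had 0 UMIs in the 294, 248 and 73 B cells, which allows up to 1.38 CPM each, and Ccnb2 and Prc1 were among those called lower. Pclaf was at 1.52, 0 and 0 CPM (log2 difference -4.90 ± 0.78 SE, adjusted p = 6.42e-06, edgeR), on 2 UMIs. Of all 45 genes 38 were higher in B than in CD4 cells in 0 of 3 libraries. Without library 2 only 4 were called and with stricter gates 5, and 15 without the cells of most UMIs.

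Macrophages, the scavenger cells of the nerve, had 0 of 40 genes called higher, against 25.5% of all genes, and 35 called lower, against 14.6%. The median log2 difference was -2.42, against 0.01. Pclaf was at 0 and 2.62 CPM in libraries 1 and 2 (log2 difference -4.18 ± 0.67 SE, adjusted p = 4.15e-06, edgeR), Rrm2, a subunit of ribonucleotide reductase, at 0 and 1.89 CPM (-4.15 ± 0.48, adjusted p = 1.16e-08) and Nusap1, which ties chromosomes to the spindle, at 0 and 0.630 CPM (-3.87 ± 0.63, adjusted p = 6.15e-06). Against CD4 cells alone, 38 of 40 genes were lower and 0 higher (23.6% and 24.7% of all genes), with a median of -2.85 against -0.03. Pclaf, Rrm2 and Nusap1 again led, with log2 differences of -4.57 ± 0.51 SE, -4.45 ± 0.50 and -4.42 ± 0.63 (adjusted p = 5.17e-09, 4.20e-09 and 5.54e-07). Without library 2, 0 genes were called in either comparison, since 10 macrophages then remained, and without those 10 cells the counts were 36 and 39.

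Monocytes, from which many tissue macrophages arise, had lower S-phase genes in the main. Here 12 of 40 genes were called lower and 0 higher, against 12.7% and 21.2% of all genes, and 11 of the 12 were S-phase genes. The median log2 difference was -1.66 for S-phase and -0.69 for mitotic genes, against -0.09 for all genes. Dut was at 4.94, 11.2 and 9.73 CPM (log2 difference -3.01 ± 0.39 SE, adjusted p = 1.23e-07, edgeR), below every library of every other class. Rrm2 was at 0, 6.99 and 0 CPM (-2.64 ± 0.67, adjusted p = 0.0021) and Hist1h2ap, a histone gene whose near-identical copies make its counts uncertain, at 7.40, 4.19 and 0 CPM (-2.35 ± 0.72, adjusted p = 0.010). Only 4 genes were called without library 2. The 1 mitotic gene among the 12 was Stmn1, which destabilises microtubules.

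**Figure D4:**
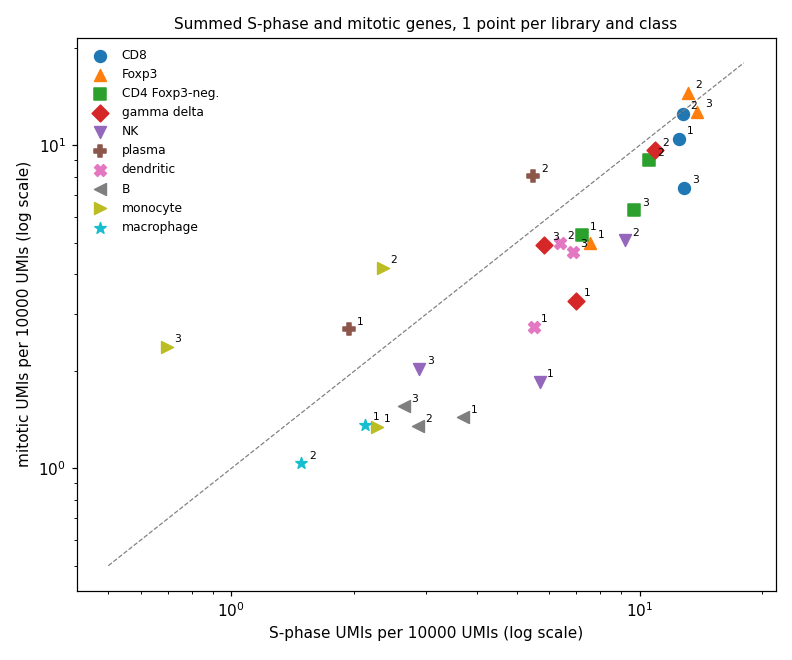
Summed UMIs of S-phase genes (horizontal axis) and mitotic genes (vertical axis) per 10000 UMIs, both on log scales, 1 point per library (number) and class (symbol), with the line of equal sums dashed. CD8, Foxp3 and CD4 cells lie at the upper right (7.24 to 13.8 S-phase UMIs), and plasma cells lie above the line in both libraries.

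The balance of both groups differed between classes. For each S-phase UMI there were 1.39 and 1.46 mitotic UMIs in plasma cells, 0.836, 0.978 and 0.575 in CD8 cells, 0.661, 1.11 and 0.919 in Foxp3 cells, 0.731, 0.851 and 0.650 in CD4 cells and 0.390, 0.471 and 0.588 in B cells. The plasma cell ratios lay above those of all T cell, NK, B, macrophage and dendritic libraries. Monocytes ranged from 0.594 to 3.43, and the highest, library 3, rested on 24 mitotic UMIs, of which 15 were of Cks2, a small partner of Cdk1. These ratios are descriptions, and their differences were not tested.

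Dendritic cells, which present antigen to T cells, were mixed. Of 40 genes 6 were called higher and 2 lower, against 21.6% and 8.94% of all genes, so neither share stood above the background, and the median log2 difference was 0.12 against 0.03. Pclaf was at 55.8, 80.0 and 58.8 CPM (log2 difference 1.71 ± 0.29 SE, adjusted p = 1.17e-05, edgeR), Rrm2 at 43.9, 44.1 and 0 CPM (1.19 ± 0.28, adjusted p = 0.000908) and Uhrf1, which keeps DNA methylation through replication, at 10.1, 16.2 and 0 CPM (1.10 ± 0.31, adjusted p = 0.0051). Cdc20 was lower, at 2.53, 6.74 and 0 CPM (-1.31 ± 0.49, adjusted p = 0.039), as was Cenpa, the centromeric histone, at 24.5, 35.1 and 19.6 CPM (-0.91 ± 0.26, adjusted p = 0.0062). These directions were not all stable: the log2 difference turned to -0.85 for Rrm2 without the cells above the 95th percentile of UMIs, to 0.28 for Cdc20 with stricter gates and to 0.0021 for Cenpa without library 2.

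The dividing dendritic cells were unevenly spread over subsets. In library 2 type 1 cells (Xcr1, Clec9a) had 19 of 100 cells with S-phase or mitotic genes (19%, exact 95% interval 11.8% to 28.1%), while plasmacytoid cells (Siglech) had 1 of 107 (0.935%, interval 0.0237% to 5.10%). Mature cells by their leading markers alone, Fscn1 and Ccl22 and with no demand for Ccr7, had 2 of 46 (4.35%) and type 2 cells 1 of 20 (5%). In library 1 type 1 cells had 3 of 27 (11.1%, interval 2.35% to 29.2%) and plasmacytoid cells 0 of 50, with an interval up to 7.11%. Type 1 cells of library 2 had 12677 UMIs at the median and plasmacytoid cells 4671, both above the 1000 UMIs to which cells were thinned. Library 3 held 3 type 1 and 7 plasmacytoid cells, too few for a share. Leaving out the cells above the 95th percentile of UMIs lowered the share of the whole class from 6.74% to 2.43% and the number of genes called to 5.

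Hist1h2ap behaved unlike the other S-phase genes between libraries. In CD8 cells it was at 52.3 and 40.4 CPM in libraries 1 and 2 and at 211 CPM in library 3. In Foxp3 cells the levels were 18.7, 37.6 and 286 CPM, and in CD4 cells 21.4, 30.0 and 152 CPM, in the same order. Library 3 was also high in B cells, at 65.8 CPM against 11.4 and 2.75 CPM. It was not high in dendritic cells (14.4, 18 and 0 CPM) or monocytes (7.40, 4.19 and 0 CPM). These differences between libraries were not tested.

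Related genes outside the 45 were counted from lists of G1 control, of brakes on the cycle and of further replication and mitosis genes. The shares of all genes called higher, to be held beside these counts, were 18.1%, 20.1%, 18%, 10.5%, 8.11%, 19%, 18.5%, 25.5%, 21.2% and 21.6% in CD4, CD8, Foxp3, gamma delta, NK, B, plasma, macrophage, monocyte and dendritic cells. The shares called lower were 8.86%, 9.82%, 7.75%, 4.25%, 4.83%, 12.5%, 16.5%, 14.6%, 12.7% and 8.94%. Of the last list 19 of 28 were tested. In CD8 cells 15 were higher and 0 lower, led by Rpa2, which coats single-stranded DNA (log2 difference 1.90 ± 0.13 SE, adjusted p = 1.07e-13, edgeR), Pttg1, the separase inhibitor (1.73 ± 0.17, adjusted p = 7.43e-10), and Racgap1 (1.70 ± 0.21, adjusted p = 6.93e-08). Foxp3 cells had 11 higher, led by Lig1, a DNA ligase, plasma cells 9 higher, led by Cenpm (2.79 ± 0.32, adjusted p = 1.49e-08), and CD4 cells 4 higher and 1 lower, Fen1. Macrophages had 15 lower, led by Cenpm, monocytes 7 lower and 1 higher, led by Prim1, and B cells 7 lower and 2 higher, led by Gmnn. Gamma delta cells had 3 higher, dendritic cells 4 higher and 3 lower and NK cells 1 lower. The counts of higher genes in CD4, gamma delta and dendritic cells and the NK count were near the share of all genes. Those of higher genes in B cells and monocytes and of lower genes in CD4 cells were below it.

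Of 20 G1 genes 14 were tested. Myb, a factor of cycling blood cells, was higher in CD4 (log2 difference 2.84 ± 0.41 SE), Foxp3 (2.61 ± 0.44), gamma delta (2.41 ± 0.61) and CD8 cells (1.97 ± 0.44), and most in NK cells (4.35 ± 0.49, adjusted p = 8.72e-08, edgeR), which had 57.7, 35.3 and 14.6 CPM. Among the D cyclins Ccnd2 was higher in CD4 cells (1.70 ± 0.15) and plasma cells (2.09 ± 0.19) and lower in macrophages (-3.66 ± 0.33) and monocytes (-2.08 ± 0.31), while Ccnd1 was higher in dendritic cells (5.47 ± 0.24, adjusted p = 4.78e-18) and macrophages (3.15 ± 0.35). Myc was higher in B cells (3.11 ± 0.15, adjusted p = 9.99e-18), in which 24 of the 40 cell cycle genes were lower. In all, 5, 7, 5, 4, 2, 2, 5, 1, 0 and 3 G1 genes were higher in CD4, CD8, Foxp3, gamma delta, NK, B, plasma, macrophage, monocyte and dendritic cells, and 0, 0, 0, 0, 0, 2, 2, 7, 2 and 3 were lower. Of 14 genes, the higher counts of B and dendritic cells were no larger than the share of all genes called there (19% and 21.6%), and those of macrophages and monocytes were smaller (25.5% and 21.2%).

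All 15 brake genes were tested. Cdkn2a, an inhibitor of Cdk4 and Cdk6, was higher in CD4 (log2 difference 3.01 ± 0.39 SE), CD8 (2.97 ± 0.36), Foxp3 (2.46 ± 0.46, adjusted p = 0.000104, edgeR) and plasma cells (2.05 ± 0.75). Cdkn1a, another inhibitor, was higher in monocytes (3.01 ± 0.19, adjusted p = 4.34e-15), macrophages (1.93 ± 0.26) and dendritic cells (1.37 ± 0.21) and lower in B cells (-3.09 ± 0.37) and plasma cells (-3.65 ± 0.52). Btg1, an antiproliferative gene, was lower in plasma cells (-5.22 ± 0.35, adjusted p = 4.93e-14), and Klf4 was higher in monocytes (3.09 ± 0.22) and macrophages (2.84 ± 0.25). Over the classes in the order above, 7, 6, 7, 2, 3, 3, 3, 2, 4 and 4 brake genes were higher and 1, 2, 2, 2, 0, 3, 5, 6, 2 and 1 were lower. Of 15 genes, the higher counts of B, plasma and monocyte cells were near the shares of all genes called there (19%, 18.5% and 21.2%). Those of gamma delta and dendritic cells were also near them (10.5% and 21.6%), and that of macrophages was below (25.5%). The lower counts of CD4, CD8, monocyte and dendritic cells were near their shares too (8.86%, 9.82%, 12.7% and 8.94%).

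Among the genes whose log2 CPM over the 28 sums ran most like the mean of the tested cell cycle genes were Spc24 (Pearson r = 0.947), Cdca8 (0.923), Tacc3 (0.885), Cenpm (0.885), Lgalsl (0.877), Cxcr3 (0.873), Racgap1 (0.873), Cdca3 (0.873) and Cdkn3 (0.862), against a median r of 0.233 over the 9780 other genes. The sums share libraries, classes and depth, so the values describe likeness and were not tested. Lgalsl and Cxcr3, a chemokine receptor of T cells, are not known as cell cycle genes.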

How the data were processed

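The 45 genes, the classes, their markers and the further lists were chosen with earlier results of these data known. The authors mapped reads of the 10x 5′ assay to mm10 with Cell Ranger. By the headers of the deposited counts it was version 5.0.1 for library 1 and 6.1.2 for libraries 2 and 3. The deposited values are UMI counts without normalization. Library 1 came with no gene list among the files used here and was read in the order of the others. Its row totals had a Spearman correlation of 0.950 and 0.929 with libraries 2 and 3 across genes, and 0.362 and 0.321 when shifted by 1 row.

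Cells with under 300 UMIs, over 5000 genes or over 20% mitochondrial UMIs were left out, as in the study. Gates needed marker UMIs (for T cells at least 2 UMIs summed over Cd3d, Cd3e and Cd3g, for B cells 3, plasma cells 20, C1q 5, monocytes, dendritic and NK cells 3, gamma delta cells 2) and at most 1 UMI of other lineages, with higher limits for C1q (2), Lyz2 (3), neutrophil genes (5) and plasma cell genes (19). The plasma cell gate had no limit on B cell genes. No doublet caller was run. Cells with markers of several lineages fell outside the classes. Binomial intervals are exact Clopper-Pearson 95% intervals, and a count of 0 allows up to 3 counts.

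Sums were tested with edgeR 4.0.16 in R 4.3.3 (TMM, filterByExpr, terms for class and library, two-sided). The library was kept as a block because all classes in it share its mice. CPM are on the TMM scale. Library directions used log2(CPM + 1). Scripts were tested on simulated data. Alternatives included DESeq2 1.42.0. Named genes were Mki67, Top2a, Pcna and Mcm5, the 3 called genes with the largest log2 difference per comparison and direction, and examples by role and list by the same size rule. An item that met this rule is not reported here.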

Additional observations from a re-analysis of the deposited data

How the results depend on the processing

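The counts of cell cycle genes called were 24 in B, 20 in CD4, 40 in CD8, 32 in Foxp3, 6 in gamma delta, 1 in NK, 27 in plasma, 35 in macrophage, 12 in monocyte and 8 in dendritic cells, 10 for CD8 against CD4, 0 for Foxp3 against CD4 and 38 for macrophages against CD4, and DESeq2 size factors kept every count within 1.5 times. The DESeq2 test gave 10 in CD4, 3 in gamma delta and 0 in NK cells and 1 for CD8 against CD4. Without the filter on low counts there were 12 in gamma delta and 4 in NK cells, 27 for CD8 against CD4 and 3 for Foxp3 against CD4. Without the library as replicate block there were 4 in CD4, 20 in Foxp3, 0 in gamma delta, 0 in NK, 18 in macrophage, 7 in monocyte and 2 in dendritic cells, 0 for CD8 against CD4 and 22 for macrophages against CD4. Stricter gates gave 1 in gamma delta, 0 in NK, 5 in B and 16 in macrophage cells, 22 for CD8 against CD4 and 2 for Foxp3 against CD4. Sums of thinned cells, in which 9 of the genes could be tested, gave 4 in CD4, 7 in CD8, 4 in Foxp3, 1 in gamma delta, 0 in NK, 2 in B, 1 in plasma, 3 in macrophage, 1 in monocyte and 0 in dendritic cells, and 1, 1 and 7 for CD8, Foxp3 and macrophages against CD4. Without cells above the 95th percentile of UMIs there were 3 in gamma delta, 7 in NK, 15 in B, 3 in plasma, 21 in macrophage and 5 in dendritic cells and 1 for Foxp3 against CD4. Without immunoglobulin genes, an alternative chosen after seeing the data, there were 10 in gamma delta and 2 in NK cells.

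With 1 library left out the counts ranged from 14 to 36 in Foxp3, 4 to 14 in gamma delta, 0 to 5 in NK, 4 to 27 in B, 14 to 31 in plasma, 0 to 36 in macrophage, 4 to 13 in monocyte and 5 to 6 in dendritic cells, 3 to 13 for CD8 against CD4, 0 to 4 for Foxp3 against CD4 and 0 to 40 for macrophages against CD4. The lowest values in Foxp3, gamma delta, NK, B, plasma, macrophage and monocyte cells came without library 2, when 33 genes were tested.

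The shares of dividing cells depended on depth and on the number of genes asked for. Thinned to 2000 UMIs they were 32.9% in CD4, 34.1% in CD8, 34.7% in Foxp3, 20.8% in gamma delta, 19.9% in NK, 14.7% in B, 3.57% in macrophage, 4.76% in monocyte and 16.0% in dendritic cells. Unthinned they were 40.2%, 51.0%, 44.7%, 48.7%, 48.7%, 24.9%, 22.5%, 26.2% and 47.3% in that order, and 55.4% in plasma cells. With at least 1 gene they were 52.6%, 55.1%, 55.4%, 43.0%, 35.5%, 35.8%, 39.0%, 25.9% and 27.9%, and with at least 3 genes 4.13% in CD4, 7.36% in CD8, 5.78% in Foxp3, 2.46% in gamma delta, 4.32% in NK, 0.256% in B and 0.578% in monocyte cells. Stricter gates gave 1.67% in NK and 0% in monocyte cells, and leaving out the cells above the 95th percentile 11.9% in Foxp3 and 2.43% in dendritic cells. Thinned without immunoglobulin genes, a separate random draw also chosen after seeing the data, they were 8.29% in NK, 5.39% in B, 5.67% in macrophage, 1.38% in monocyte and 8.86% in dendritic cells. Immunoglobulin genes and Jchain held 0.0406%, 0.0264% and 0.00849% of UMIs in NK cells and 1.26%, 1.08% and 0.836% in B cells of libraries 1 to 3. They held 0.0440% and 0.0178% in macrophages of libraries 1 and 2, and 67.9% and 57.1% in plasma cells of libraries 1 and 2. The plasma cell share in the draw without immunoglobulin genes is not given here. The shares of dividing cells in this paragraph are means of libraries without weights, so 10 macrophages of library 1 count as much as those of library 2. The causes of the shifts were not tested.

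Of 36 results on single named genes, 26 lost the threshold under at least 1 alternative. In dendritic cells the log2 difference changed sign for Rrm2 without the cells above the 95th percentile (-0.85), for Cdc20 with stricter gates (0.28) and for Cenpa without library 2 (0.0021), which otherwise ranged from -1.07 to -0.87 with 1 library left out. P-values measure the spread left after the class and library terms, estimated over the 28 sums from 3 libraries of 4 mice. Plasma cells and macrophages entered with 2 libraries each.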
